A study of Mus musculus with 6 samples.

Results

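Broad H3K79me2 regions found in both control libraries and in neither NPM1-depleted library were examined. They were chosen by the presence of a peak: broad peaks of 4 libraries on chromosomes 1 to 19 were merged wherever at least 1 bp was shared, and a merged region was kept when both CTR libraries and neither NPM1 KD library had a peak in it. The choice left 295 of 49835 merged regions, or 0.592%, and they are called CTR-only regions here. N2a cells, a mouse neuroblastoma line, had been transfected with plasmids carrying either a control hairpin (CTR, pLKO.1-shCTR) or a hairpin against Npm1 (NPM1 KD, pLKO.1-shNpm1), selected with puromycin and collected after 72 h, on day 3. Each group had 2 libraries, numbered 1 and 2 and taken from separate cell passages and transfection batches. All 4 came from the same line and were precipitated with the same H3K79me2 antibody. The peak lists hold no RNA or protein value, so the depletion of NPM1 itself cannot be checked in them.

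H3K79me2 is dimethylation of lysine 79 of histone H3, placed by a single known methyltransferase, DOT1L. It covers the first part of transcribed genes, from just past the transcription start into the gene body, and its breadth follows transcription. NPM1 (nucleophosmin) is an abundant nucleolar protein and histone chaperone that also moves through the nucleoplasm. A broad peak caller joins neighbouring enriched windows into domains, and a narrow call on the same library marks their sharper maxima.

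The libraries differed in background pileup and in list length. The background pileup, the number of overlapping fragments expected by chance at a peak, was solved from the fold and p-value of the narrow peaks and had medians of 11.9 (CTR 1), 7.65 (CTR 2), 8.99 (NPM1 KD 1) and 11.8 (NPM1 KD 2). On chromosomes 1 to 19 the broad lists held 47526, 33953, 43092 and 45303 peaks in that order. CTR 2 had the lowest background pileup and the shortest list, and every CTR-only region needed a peak in it. Its broad peaks were longer, with a median of 1687 bp against 1031 to 1198 bp in the other libraries. They covered 220 Mb, against 232 to 249 Mb. Sequencing depth itself cannot be read from the lists, and its part in the counts was not tested.

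The strongest CTR-only regions fell into 2 kinds, which their sequences show. Strength is given as the −log10 q listed for the broad peak in the weaker CTR library, q being an estimate of the false discovery rate. The DNA that both CTR libraries shared is printed for the 6 strongest regions, from the plus strand of mm10 (RefSeq GRCm38.p6), with capitals for bases outside the repeats soft-masked in that assembly and lower case for bases within them. The Grk5 stretch lies at chr19:60949008-60949284, the chromosome 12 stretch at chr12:62071450-62071617, the Gm47873 stretch at chr9:21880879-21880949, the chromosome 1 stretch at chr1:23302679-23302872, the Lhfpl2 stretch at chr13:94171189-94171356 and the Exoc2 stretch at chr13:30930475-30930613.
Grk5 intron: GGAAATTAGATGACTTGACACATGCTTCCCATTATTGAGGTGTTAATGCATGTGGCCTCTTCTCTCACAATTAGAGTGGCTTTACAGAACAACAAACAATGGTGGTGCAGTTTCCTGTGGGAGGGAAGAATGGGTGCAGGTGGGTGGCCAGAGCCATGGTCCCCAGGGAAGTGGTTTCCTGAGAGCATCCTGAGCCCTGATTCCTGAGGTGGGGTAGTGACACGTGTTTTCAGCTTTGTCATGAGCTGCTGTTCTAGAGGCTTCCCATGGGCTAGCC
chromosome 12 intergenic: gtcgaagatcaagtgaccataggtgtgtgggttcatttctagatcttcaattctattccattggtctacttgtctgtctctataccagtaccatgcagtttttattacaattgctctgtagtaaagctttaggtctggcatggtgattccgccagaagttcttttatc
Gm47873 intron: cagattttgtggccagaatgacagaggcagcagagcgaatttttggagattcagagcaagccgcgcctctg
chromosome 1 intergenic: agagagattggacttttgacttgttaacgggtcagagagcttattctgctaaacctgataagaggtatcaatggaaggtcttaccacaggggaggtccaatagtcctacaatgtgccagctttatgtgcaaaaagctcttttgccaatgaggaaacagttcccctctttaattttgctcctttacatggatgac
Lhfpl2: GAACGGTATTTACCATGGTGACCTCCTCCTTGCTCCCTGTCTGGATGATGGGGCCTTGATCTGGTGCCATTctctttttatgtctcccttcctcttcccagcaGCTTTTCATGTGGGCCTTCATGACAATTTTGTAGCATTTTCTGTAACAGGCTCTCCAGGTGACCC
Exoc2 intron: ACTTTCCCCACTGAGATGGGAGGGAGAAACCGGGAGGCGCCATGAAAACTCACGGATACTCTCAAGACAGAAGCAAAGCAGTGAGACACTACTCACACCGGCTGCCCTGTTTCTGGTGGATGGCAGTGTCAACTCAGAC

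The Grk5 and Exoc2 stretches were wholly unmasked, and the Lhfpl2 stretch was unmasked over 81.0% of its bases. The chromosome 12, Gm47873 and chromosome 1 stretches had no unmasked base. Whole regions of these 3 were also found elsewhere on the assembled chromosomes, at no less than 95% identity over 90% or more of their length. The chromosome 12 region had 10495 such places, the Gm47873 region 1090 and the chromosome 1 region 228. The Grk5, Lhfpl2 and Exoc2 regions had none. The study's methods state that only uniquely mapping reads were kept. How this filter acted on peaks in regions with many such places was not tested.

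In the control libraries the unmasked regions of these 6 were peaks of middling strength for their library, where the median −log10 q of all broad peaks was 2.41 in CTR 1 and 2.67 in CTR 2. The region in an intron of Grk5, a kinase that phosphorylates G protein-coupled receptors, spans chr19:60948993-60949396 and had a −log10 q of 2.96 in CTR 1 and 3.13 in CTR 2, at a fold over background of 2.14 and 2.46. The Exoc2 region, in an intron of an exocyst subunit gene, had 3.00 and 2.70, at a fold of 2.15 and 2.34. The region in Lhfpl2, which encodes a tetraspan membrane protein, lay 1236 bp from an annotated start of that gene and had 3.95 and 2.71, at a fold of 2.33 and 2.35. Neither NPM1 KD library had a broad or a narrow peak in any of these 3 regions, which says only that none passed the caller's threshold there.

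The masked regions of the first 6 had similar broad values and different narrow ones. Broad and narrow values come from separate calls and need not share a scale, so they are not compared with each other. The chromosome 1 region (chr1:23302673-23303116, intergenic) had a broad −log10 q of 2.75 in CTR 1 and 3.96 in CTR 2. Its narrow peaks reached folds of 8.38 and 8.79 in the CTR libraries (1, then 2) and of 6.81 and 6.89 in the NPM1 KD libraries. The Gm47873 region, in an intron of a unitary pseudogene at chr9:21880385-21881108, had narrow folds of 4.81, 4.97, 3.204 and 2.82 in the same order. Both regions were therefore CTR-only in the broad lists and present in all 4 narrow lists, with the NPM1 KD values lower than the CTR values. The chromosome 12 region (chr12:62071446-62071640) had narrow folds of 3.41 in CTR 1 and 3.93 in CTR 2 and no narrow peak in either NPM1 KD library. It was also the most isolated, 2846394 bp from the nearest region held by all 4 libraries.

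The next 4 in strength were 2 masked intergenic regions, a masked intron of Acvr1c, an activin receptor gene, and an intron of Cmc1, which encodes an assembly factor of cytochrome c oxidase. The intergenic region on chromosome 3 (chr3:126129427-126129896) had broad −log10 q values of 4.81 in CTR 1 and 2.602 in CTR 2, and that on chromosome 10 (chr10:112054084-112054584) had 3.64 and 2.49. The Acvr1c region had 3.31 and 2.44, and the Cmc1 region had 2.396 and 2.48. Of these 4, the Cmc1 region alone had no narrow peak in an NPM1 KD library. Of the 10 strongest regions, 6 were masked over at least 95% of their length, against 21 of all 295.

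**Figure D1:**
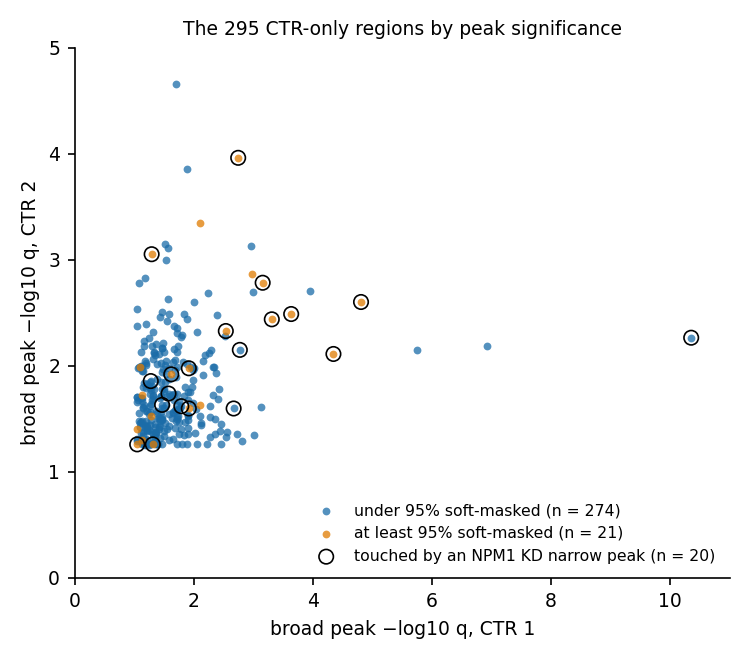
Each point is 1 of the 295 CTR-only regions, placed by the −log10 q of its broad peak in CTR 1 (horizontal axis) and CTR 2 (vertical axis), and coloured by whether at least 95% of it is soft-masked (21 regions) or less (274). Circles mark the 20 regions touched by a narrow peak of an NPM1 KD library, 13 of which are among the 21 masked ones.

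Over all 295 members the −log10 q had a median of 1.499 in CTR 1, with a range of 1.05 to 10.4, and a median of 1.68 in CTR 2, with a range of 1.25 to 4.65. The fold had a median of 1.81 in CTR 1 and 2.05 in CTR 2. Ranked among all broad folds of the same library, a member stood at a median percentile of 22.8 in CTR 1 and 20.1 in CTR 2. CTR 2 had the higher −log10 q in 188 regions and CTR 1 in 107. In the weaker of both libraries the median was 1.41, 24 regions reached 2 and 0 reached 3, with a highest value of 2.96. The highest single value, 10.4 in CTR 1, belonged to a region at Oaz1-ps (chr17:17345339-17345952), a processed pseudogene of ornithine decarboxylase antizyme, where CTR 2 had 2.27. That region carried narrow peaks in all 4 libraries, at folds of 9.31 and 6.71 in CTR 1 and CTR 2 and 5.71 and 4.70 in the NPM1 KD libraries.

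CTR-only regions were short, as those of every other pair were. Their lengths ran from 181 to 2318 bp, with a median of 474 bp, against 5596 bp for the 20216 regions held by all 4 libraries. The other 5 pairs had medians of 480 to 671 bp. Together the CTR-only regions covered 173 kb. The stretch that both CTR peaks shared had a median of 185 bp, against 178 to 210 bp for the other pairs. In 132 of the 295 regions (44.7%) the peaks overlapped by at least 50% of both, against 34.9% to 43.0%. The longest was intergenic, at chr17:4835298-4837615, with a −log10 q of 1.69 in CTR 1 and 1.96 in CTR 2. Next came regions in Pepd, which encodes the dipeptidase prolidase (2036 bp, 1.83 and 2.49), and in Dnhd1, a gene for a dynein heavy chain domain protein (2032 bp, 1.71 and 1.52). The 5 longest also included an intergenic region near Olfr136 on chromosome 17 (1864 bp, 1.98 and 1.80) and an intron of the cAMP phosphodiesterase gene Pde4d (1766 bp, 1.18 and 2.83). None of these 5 had a narrow peak in an NPM1 KD library.

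At the threshold, members and non-members differed little in value. The weakest members were 8 that tied at a −log10 q of 1.05 in CTR 1, with 1.26 to 2.54 in CTR 2. Of these 8, 5 lay in introns of Cyfip1, a subunit gene of the WAVE complex, and of the zinc finger gene Tshz2, at or near annotated starts within Usp32 and Cep170b, and near Mir29a. In CTR 2 these had values of 1.71, 1.71, 1.29, 1.66 and 2.54. The other 3 lay in Siah3, in Ddx23 and between genes at chr16:76561047-76561367, with 2.38, 1.31 and 1.26. Just outside were regions with peaks in both CTR libraries and a single NPM1 KD peak at the lowest deposited value, a −log10 q of 1.01 in NPM1 KD 1, at which 16 regions tied. Of these, 5 lay in Gfod1, Parg and Scrib and at 2 intergenic places on chromosomes 12 and 13, with a −log10 q of 1.11 to 1.43 in CTR 1 and 1.34 to 2.13 in CTR 2. Gfod1 also holds 2 CTR-only regions.

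The 4 libraries can be paired in 3 ways, and each way gives regions held by exactly 2 libraries. Pairing by treatment gave the 295 CTR-only regions and 2479 NPM1 KD-only regions (4.97% of merged regions). Pairing by library number gave 1884 regions held by both libraries numbered 1 (3.78%) and 279 held by both numbered 2 (0.56%). Pairing across gave 1155 in CTR 1 and NPM1 KD 2 (2.32%) and 362 in CTR 2 and NPM1 KD 1 (0.726%). In the deposited broad lists the CTR-only count lay between the other 2 counts that needed a peak in CTR 2, the shortest list. This order changed with the setting. With lists cut to the length of the shortest, 374 regions were CTR-only. That was below both libraries numbered 2 (498) and CTR 2 with NPM1 KD 1 (787). At a −log10 q of at least 3 the CTR-only count, 145, was above those of these pairs (105 and 62). With narrow lists it was also above them (1051 against 918 and 844). Merging within 1 kb kept it between them (157 against 116 and 180). No test was made on these counts.

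**Figure D2:**
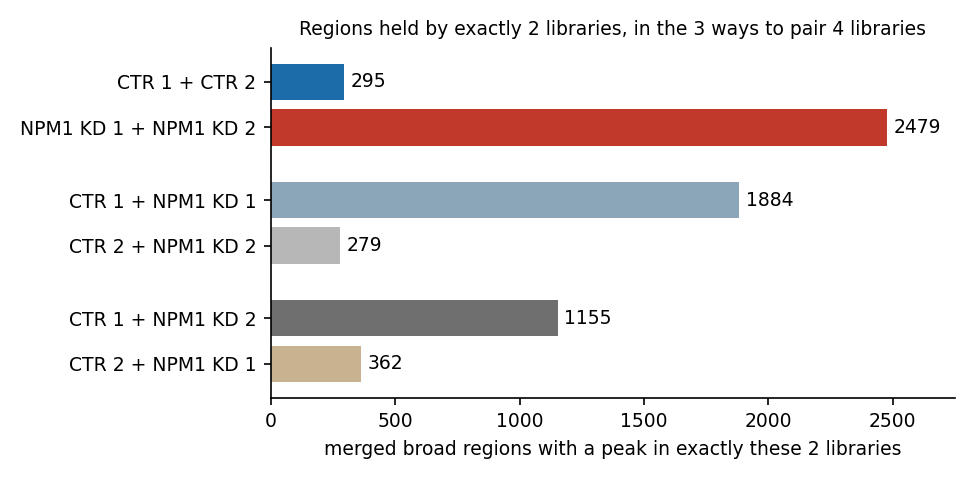
Bars give the number of merged broad regions with a peak in exactly the 2 libraries named, for the 3 ways to pair the 4 libraries, from a baseline of 0. The 295 CTR-only regions sit beside 279 and 362 for the other pairs that contain CTR 2, and the pairs without CTR 2 hold 1155 to 2479.

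The peaks of the CTR-only regions were about as strong as those of the other pairs. Their median −log10 q in the weaker library was 1.41 (1.36 to 1.46, 95% order-statistic interval), against medians of 1.28 to 1.41 for the other 5 pairs. The share that reached 2 in both libraries was 8.14% (24 regions), against 3.31% to 5.71%. Of these 24, 9 were masked over at least 95% of their length and 9 were touched by an NPM1 KD narrow peak. The 2 pairs that reached the highest weaker values were CTR 1 with NPM1 KD 2 (9.43) and both libraries numbered 1 (3.85).

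CTR-only regions lay mostly in introns. In the first class it overlapped, with promoters taken first, a region was intronic in 168 of 295 cases (56.9%, exact 95% binomial interval 51.1% to 62.7%). A promoter, within 3 kb of an annotated transcription start, was overlapped by 79 (26.8%, 21.8% to 32.2%). A further 28 were distal intergenic (9.49%, 6.40% to 13.4%), 12 touched a 3′ UTR (4.07%), 5 an exon outside UTRs (1.69%, 0.553% to 3.91%) and 3 the 3 kb downstream of a gene (1.02%). Regions held by all 4 libraries were promoter regions in 63.0% of cases and intronic in 23.6%. These intervals, like all others here, cover counting error only.

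The other 5 pairs had nearly the same composition in the 2 main classes, with 24.4% to 32.8% promoter and 49.0% to 55.9% intron. They differed most in the small classes. Exons took 5.80% to 7.86% of the regions of the other pairs, against 1.69% of the CTR-only regions, whose 5 exonic members lay in Tiam2, Bbs4, Muc6, Wdr59 and Pdia6 and were named after their values were seen. Distal intergenic regions took 4.42% to 7.62%, against 9.49%. Neither difference was tested. The exon share rose to 5.61% when all broad lists were cut to the length of the shortest, and the distal intergenic share was 6.93% without the members masked over at least 95% of their length.

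**Figure D3:**
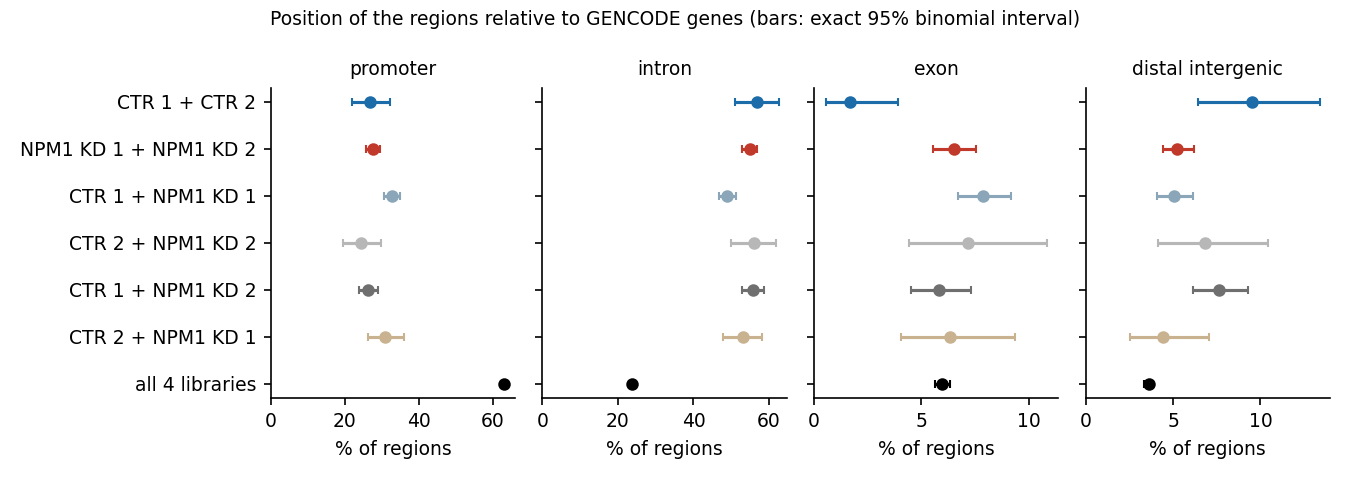
Points give the percentage of regions in 4 position classes for the 6 pairs of libraries and for the regions held by all 4, and bars the exact 95% binomial interval. The CTR-only regions (CTR 1 + CTR 2) have 56.9% in introns and 26.8% in promoters, next to the other pairs, and 1.69% in exons, whereas regions held by all 4 libraries are 63.0% promoter.

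Few of the promoter regions covered a start. Only 8 of the 295 regions contained an annotated transcription start (2.71%), and the median distance to the nearest start was 9019 bp. Within 3 kb of a start of a protein-coding gene there were 53. The strongest was that of Lhfpl2. It was followed by a region 2231 bp from a start of Acsl3, a long-chain acyl-CoA synthetase gene, with a −log10 q of 2.15 in CTR 1 and 2.04 in CTR 2. A region 1900 bp from Bcl3, an atypical inhibitor of NF-kappaB, had 2.16 and 1.92, and one 1189 bp from a start within Adgrb3, a brain adhesion receptor gene, had 2.42 and 1.78. The others by the same order lay near starts of the nuclear import receptor gene Tnpo3 (1.72 and 1.73), the laminin receptor subunit gene Itga6 (1.72 and 2.35), the initiator caspase gene Casp8 (1.70 and 1.89) and the zinc finger gene Zbtb38 (1.70 and 4.65). At Zbtb38 the narrow peak had a fold of 2.02 in CTR 1 and 3.70 in CTR 2. No NPM1 KD library had a narrow peak in any of these 8 regions. The Lhfpl2, Acsl3, Adgrb3 and Itga6 regions lay 79.1% to 82.7% of the way along the gene, far from its first start.

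Genes were overlapped by 254 of the 295 regions (86.1%, 81.6% to 89.8%), and protein-coding genes by 237. Of those 237, 230 (97.0%) lay in a gene whose body also had a region held by all 4 libraries, so nearly all hosts carried the mark in every library. For the other pairs that share was 95.6% to 99.1%. The middle of a CTR-only region stood at a median of 52.1% of the gene's length from its start (46.3% to 57.7%), against medians of 56.4% to 60.3% for the other pairs. In 161 of the 230 (70.0%, 63.6% to 75.8%), the nearest region held by all 4 lay on the side of the gene's start, against 68.5% to 72.4% for the other pairs. The nearer shared region thus lay mostly towards the gene's start, as in every other pair. It was not required to lie within the same gene.

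The median distance from a CTR-only region to the nearest region held by all 4 libraries was 3111 bp (2688 to 3728, order-statistic interval). It was 2142 to 2982 bp in the other 5 pairs. Within 1 kb of such a region there were 73 CTR-only regions (24.7%), within 5 kb 182 (61.7%), within 10 kb 229 (77.6%) and within 100 kb 280 (94.9%). The other pairs had 26.5% to 32.6% within 1 kb and 96.3% to 98.7% within 100 kb. Of the 229, 83 lay between 2 such regions, with 1 on each side within 10 kb. They made up 28.1% of all members, against 26.3% to 34.1%. The nearest broad peak of an NPM1 KD library was a median of 820 bp away and within 1 kb for 170 regions (57.6%). In the other pairs, the nearest peak of a library outside the pair was within 1 kb for 40.3% to 64.9%. With only the broad peaks of −log10 q 3 and more, the median distance was 10120 bp for another 145 regions, none of which overlapped a CTR-only region.

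**Figure D4:**
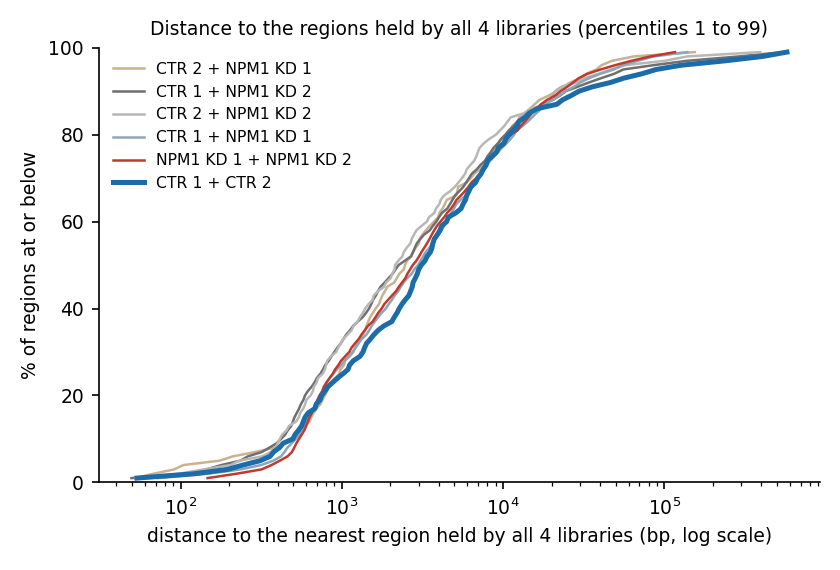
Lines give the percentage of regions (vertical axis) that lie within a distance (horizontal axis, bp, log scale) of a region held by all 4 libraries, for the 6 pairs of libraries. The line of the CTR-only regions (thick) is the lowest at 1 kb, at 24.7% against 26.5% to 32.6%, lies among the others at 10 kb, at 77.6%, and is the lowest again at 100 kb, at 94.9% against 96.3% to 98.7%.

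Host genes were long. The 214 protein-coding genes that held a CTR-only region had a median length of 115 kb (103 to 145 kb), and 125 of them were 100 kb or longer. The median over the 10713 protein-coding genes with a region held by all 4 was 24.4 kb, and in the other pairs the medians of the host genes ran from 77.3 to 105 kb. In all, 229 genes hosted a CTR-only region, 18 of them more than 1, with 43 regions in those 18. The other pairs shared hosts with them. Over all genes on these chromosomes, regions of the other pairs overlapped 0.465% to 3.21%. Hosts were long in every pair, and the part of length in this sharing was not tested. Of the 229, 100 (43.7%) also hosted a region of both libraries numbered 1 (7.82% of the 1279 hosts of that pair). Hosts of NPM1 KD-only regions were 92 (40.2%, or 6.31% of 1457), of CTR 1 with NPM1 KD 2 82 (35.8%, or 10.1% of 813), of CTR 2 with NPM1 KD 1 37 (16.2%, or 12.1% of 305) and of both libraries numbered 2 29 (12.7%, or 13.2% of 220).

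Astn2, which encodes astrotactin-2, a membrane protein of migrating neurons, had the most, with 4 regions in introns between 14.3% and 28.3% of its length of 1024 kb. Their −log10 q was 1.44 to 1.57 in CTR 1 and 1.32 to 3.11 in CTR 2, and they lay 4110 to 14248 bp from a region held by all 4. Pde4d had 3, packed between 55.8% and 56.4% of its 1504 kb. Its region at chr13:109291835-109292172, which was unmasked, had 2.53 and 2.28. Sema6d, a semaphorin gene, had 3, of which the strongest (chr2:124255760-124256195) had a −log10 q of 6.93 in CTR 1 and 2.18 in CTR 2. Ablim1, which encodes an actin-binding LIM protein, had 3 with 1.25 to 2.77 in CTR 1, and the strongest of them was touched by narrow peaks of all 4 libraries, with folds of 2.95 and 2.89 in the CTR libraries and 2.303 and 1.96 in the NPM1 KD libraries. Nav3, a neuron navigator gene, and Tenm4, a teneurin gene, also had 3 each. The other 12 had 2 each and included the dendritic microtubule protein gene Map2, the kinase gene Dclk1, the potassium channel gene Kcnq5 and the actin-regulating genes Add3 and Dlc1.

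Counted over every gene body that a region overlapped, the CTR-only regions touched 248 genes. Ion channel genes, which set the electrical activity of neurons, were 8 of these 248 (3.23%): Cacna1b, Cacng8, Chrnb2, Gria2, Kcnab1, Kcnk5, Kcnn2 and Kcnq5. They were 63 of the 15860 genes with a region held by all 4 (0.397%) and 0.562% to 1.80% of the genes of the other pairs. The strongest of these regions was at Chrnb2, a nicotinic receptor subunit gene, with a −log10 q of 1.88 in CTR 1 and 2.01 in CTR 2. Kcnq5 had 2.41 and 1.69 in one region and 1.56 and 2.42 in the other, and Kcnk5, a leak potassium channel gene, had 1.499 and 2.13. Of the 47 cell adhesion and synapse genes listed, 4 were touched, namely Cntn3, Dlg2, Dscam and Tenm4 (1.61% of 248, against 0.107% of the genes with a region held by all 4 and 0.300% to 1.26% in the other pairs). In Tenm4 the strongest region had 1.98 and 1.96, in Dscam, a neuronal recognition molecule gene, 1.91 and 1.68, and in Dlg2, a synaptic scaffold gene, 1.91 and 1.53. Both lists hold many long genes, and the hosts of the CTR-only regions were long. The part of length in these counts was not tested.

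Over all genes on these chromosomes, 248 of 51229 (0.484%) were touched, and over protein-coding genes 1.06%. Of 407 Zfp genes, named for zinc finger proteins, 2 were touched (0.491%), Zfp330 (1.21 and 1.58) and Zfp532 (1.17 and 1.63). That share is near the 0.484% over all genes and below the 1.06% over protein-coding genes. The difference was not tested. A region held by all 4 was found in 326 of the 407. No olfactory receptor (1399 genes), vomeronasal receptor (561) or protocadherin gene (68) was touched. A region held by all 4 was found in 4, 2 and 54 of them. Every other pair touched at most 1 olfactory receptor gene and no vomeronasal receptor gene. Protocadherin genes touched were 15 for NPM1 KD-only regions, 21 for both libraries numbered 1 and 1 for CTR 1 with NPM1 KD 2. They were 0 for both libraries numbered 2 and for CTR 2 with NPM1 KD 1. None of the 12 H3K79 methylation and elongation genes and none of the 20 histone and DNA methylation genes was touched. Lists of 12 and 20 genes would rarely hold a touched gene at the shares above, so nothing is read from their zeros. Of these 12 and 20 genes, 10 and 20 had a region held by all 4. The zeros of the receptor and protocadherin lists were not tested. Predicted genes (Gm and Rik names) were 25 of the 248 (10.1%), against 10.1% to 12.6% in the other pairs and 29.2% of the genes with a region held by all 4. The strongest after Gm47873 was in the lincRNA gene A830019P07Rik (5.75 in CTR 1, 2.15 in CTR 2), and the next lay at Gm37953 within Ppp2r3a (2.06 and 2.32) and in Gm49313 (1.88 and 3.86). By type, 220 of the 248 were protein-coding, 9 lincRNA, 10 antisense, 4 processed pseudogenes and 1 another kind of pseudogene.

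Repeats marked a small group of members. The median soft-masked share was 15.6% (13.5% to 19.1%), below the 22.9% of the regions held by all 4 and within the 12.7% to 22.8% of the other pairs. A share of 0 was found in 33 members, of which the strongest after Grk5, Exoc2 and Pde4d lay in Washc4, a WASH complex subunit gene (2.19 and 2.102), and in Acsl3. At the other end, 21 members (7.12%, 4.46% to 10.7%) were masked over at least 95% of their length. The other pairs had 1.38% to 6.15%, and the regions held by all 4 had 0.890%. Of the 21, 9 were distal intergenic, 8 intronic and 3 near a transcription start. Further places in the assembled chromosomes were found for 16 of the 21, and for 20 of all 295 (6.78%). Among the regions of both libraries numbered 2 this share was 2.51%, and for CTR 2 with NPM1 KD 1 it was 2.49%. These 2 pairs had few masked regions, 3.94% and 1.38% at the same limit of 95%. The other 3 pairs were not searched, among them CTR 1 with NPM1 KD 2, the closest in masked regions at 6.15%. Whether its regions recur as often is therefore not known. The GC content had a median of 47.6%, against 44.1% to 49.4% in the other pairs.

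The narrow lists gave a second reading of the same libraries. A narrow peak touched 171 members in CTR 1 (58.0%) and 183 in CTR 2 (62.0%), whereas the NPM1 KD lists touched 19 (6.44%, library 1) and 18 (6.10%, library 2). In 96 members both CTR libraries and no NPM1 KD library had a narrow peak, and 56 had none in any library. At least 1 NPM1 KD library had a narrow peak in 20 members (6.78%, 4.19% to 10.3%). In the other pairs, a library outside the pair had one in 1.21% to 5.11%. These 20 were 13 of the 21 masked members and 7 of the other 274 (2.55%). For them the name CTR-only holds for the broad lists alone.

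In 17 members all 4 libraries had a narrow peak, and 12 of these were masked over at least 95% of their length. Their narrow folds ran from 2.79 to 9.31 (CTR 1), 1.86 to 12.03 (CTR 2), 2.303 to 10.4 (NPM1 KD 1) and 1.96 to 9.23 (NPM1 KD 2). Both NPM1 KD folds were below both CTR folds in 13 of the 17, and in 0 were both above. The highest stood in a masked intron of the sorting nexin gene Snx29, at 9.31, 12.03, 10.4 and 9.23 in the order given, where the groups overlapped. As the members were chosen for a broad peak in the CTR libraries alone, a lower NPM1 KD value in the same libraries is a description and was not tested. Narrow peaks outside the broad peaks of their own library made up 5.04% to 6.06% of each narrow list, and 73.4% to 78.0% of them were masked over at least 95% of their length. Hence in every library, and not in the CTR-only regions alone, the broad list left out peaks in repeats that the narrow list held.

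**Figure D5:**
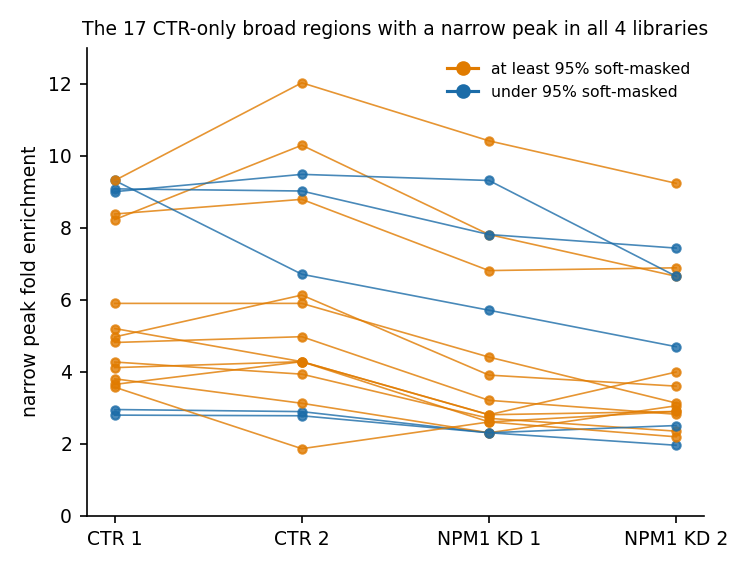
Each line joins the narrow peak fold enrichment (vertical axis, from 0) of 1 CTR-only broad region in the 4 libraries, for the 17 regions with a narrow peak in all 4. Orange marks the 12 regions masked over at least 95% of their length and blue the other 5, and in 13 of the 17 both NPM1 KD values lie below both CTR values.

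CTR-only regions were spread over all 19 autosomes. Chromosome 2 held the most, 28, and chromosomes 11 and 16 the fewest, 7 each. As a share of a chromosome's merged regions they ran from 0.212% on chromosome 11 to 0.911% on chromosome 19. The median gap between neighbouring members was 4304 kb, and 26 neighbours were less than 100 kb apart. The first 10 Mb of each mouse autosome, next to the centromere, held 21 members (7.12%, 4.46% to 10.7%), against 2.49% to 7.53% of the regions of the other pairs.

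The count itself depended on how a peak was defined. With broad peaks of −log10 q 3 and more, 145 regions were CTR-only and 45 at 5 and more. All 145 and all 45 overlapped an NPM1 KD broad peak of a lower −log10 q in the deposited lists, and 0 overlapped one of the 295. No member reached 3 in the weaker CTR library, so the 0 was given by the rule. A lower NPM1 KD peak in the wider merged region was given by it too. With lists cut to the length of the shortest, 374 were found, of which 120 overlapped a member. The narrow lists gave 1051, of which 79 overlapped a member. Stretches of at least 200 bp covered by both CTR libraries and no NPM1 KD library numbered 1574, and 1275 of them (81.0%) were parts of regions held by all 4. Without CTR 1 the count was 1351, without CTR 2 4618, without NPM1 KD 1 1046 and without NPM1 KD 2 735, since the rule then asks for fewer libraries. At limits of 3 and 5, with equal lists and with narrow lists, the NPM1 KD pair alone held 334, 114, 1414 and 4345 regions, more than the CTR pair alone in each case. Pairs that mix the groups held still more at limits of 3 and 5. These were CTR 1 with NPM1 KD 2 (487 and 273) and both libraries numbered 1 (450 and 217). With equal lists and with narrow lists the NPM1 KD pair held the most.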

How the data were processed

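H3K79me2 ChIP-seq peak lists of 4 libraries (2 CTR, 2 NPM1 KD) were used. The 2 pooled inputs were not analysed here. Per the labels and the study's methods, the authors trimmed reads with Trimmomatic 0.38 and aligned them to mm10 with Bowtie2 2.3.4.1. They called peaks per library with MACS2 (2.2.6 in the submitters' processing notes, an earlier version in the study's methods). Only uniquely mapping reads of high quality were kept, as the study's methods state. Whether input served as background is not given in the sources used here. The deposited broad and narrow lists give for each peak a fold over background (a ratio), a −log10 p-value and −log10 q-value and a display score, which was not used; the narrow lists also give a summit offset, another value not used here. The deposited lists hold no read counts.

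Broad peaks on chromosomes 1 to 19 were merged by 1 bp of overlap. Each merged region took, per library, its highest fold and −log10 q. Positions came from GENCODE vM21 (promoter within 3 kb of a start, then 5′ UTR, 3′ UTR, exon, intron, 3 kb downstream, distal intergenic). Masked bases were the lower-case bases of the RefSeq GRCm38.p6 assembly. Further places came from megablast (BLAST+ 2.17.0, word size 40, identity of at least 95% over at least 90% of the region). The background pileup was solved per narrow peak from its fold and −log10 p under a Poisson model. Python 3.11.15, pandas 2.3.3 and scipy 1.17.1 were used. The interval code was tested on simulated peaks. Shares have exact (Clopper-Pearson) 95% binomial intervals and medians order-statistic intervals.

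The members, gene lists and comparisons were chosen with earlier results of these data known. No test was made between CTR and NPM1 KD, since the choice of members used that contrast, with 2 libraries each. Named regions were the 10 strongest by −log10 q in the weaker CTR library, the 5 longest, the 5 weakest with 5 just outside, the 5 least masked, up to 8 promoter regions at protein-coding genes and up to 4 per gene list. Genes with several regions, the exonic members and the regions with NPM1 KD narrow peaks were named after their values were seen.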

Additional observations from a re-analysis of the deposited data

How the results depend on the processing

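No paired test was made because the results come from no test, and libraries of the same number were compared as counts only. With broad peaks of −log10 q of at least 3, there were 145 CTR-only regions, with a median masked share of 20.8%, a median distance of 10120 bp and an NPM1 KD narrow peak in 100%. At 5 these values were 45, 19.7%, 17475 bp and 100%, with 46.7% promoter. No region at these limits could be 1 of the 295, as no member reached 3 in the weaker CTR library. All had an NPM1 KD broad peak below the raised limit. Merging within 1 kb gave 157 regions, 15.3% distal intergenic, 4875 bp and 10.8% with such a narrow peak. Peaks overlapping by 50% of both left 132, 13.6% distal intergenic and 10.6%. Lists of equal length gave 3766 bp and 31.0%. Narrow lists gave 1051 regions, 20.4% promoter, 22.0% distal intergenic, 26.3% masked and 1856 bp. Stretches of at least 200 bp gave 1574, 0 bp and 3.37%. Promoters of 1 kb gave 9.49% promoter, and protein-coding genes alone 18.0% promoter and 17.3% distal intergenic. Without members masked over at least 95% of their length, an alternative chosen after seeing the data, 2.55% had an NPM1 KD narrow peak. Leaving out 1 library gave 735 to 4618 regions, 23.8% to 28.7% promoter, 6.66% to 9.39% distal intergenic, 13.2% to 19.2% masked, 2222 to 2953 bp and 2.66% to 6.94% with a narrow peak. Of 105 values under alternatives, 55 stayed within the interval of the main value, or within 1.5 times for the count. The cause of the other moves was not tested. A peak list shows only what passed the caller's threshold, so a missing NPM1 KD peak is no measure of absence, least of all at these low folds.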
